A study of Homo sapiens with 48 samples.

Results

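The chromatin regions bound by RELA were compared between 30 min and 6 h of TNFα (TNFa in the labels) in L3.6pl cells, a human pancreatic ductal adenocarcinoma (PDAC) line. The series holds 48 ChIP-seq samples in 16 conditions, and each condition has 3 replicates by the labels and 1 pooled peak list. The samples described here are the 6 RELA samples of TNFα, 3 at each time. The RELA and RELB lists of vehicle (PBS, with no time in the labels) served to leave out regions already called without cytokine, and the lists of FOSL1 (vehicle only) and of H3K27ac (vehicle and both times of TNFα) served to describe the rest. All conditions share the same unmodified line, and nothing in the labels says whether replicates came from separate cultures. A 30 min region outside both vehicle lists was called kept when it shared at least 1 bp with a region of the 6 h list, and lost when it shared none. A 6 h region outside the vehicle lists that shared nothing with the 30 min list was called new. On chromosomes 1 to 22 and X this gave 2691 kept, 5813 lost and 1343 new regions, 9847 in all when kept regions are counted once, as 30 min regions. In full, the earlier list had 11249 regions and the later one 7266.

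RELA is the transactivating subunit of the canonical NF-κB dimer. TNFα frees the dimer from its IκB inhibitors, it enters the nucleus within minutes, and its own targets include those inhibitors and the deubiquitinase TNFAIP3, which end the signal or make it oscillate. RELB belongs to the noncanonical branch that TWEAK drives, FOSL1 is an AP-1 subunit abundant in basal-like PDAC, and H3K27ac marks active enhancers and promoters. As a check of the cell label, 5 of 6 epithelial genes (EPCAM, KRT8, KRT18, KRT19 and CDH1, not CLDN4) had an H3K27ac peak within 500 bp of the start site in vehicle. Of 4 leukocyte genes CD68 alone had one, and of COL1A1, COL3A1, PECAM1 and CDH5, COL3A1 alone had one.

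The 3 kinds of region are shown by the 120 bp around the RELA summit of 9 of them, from the plus strand of hg38. Capitals mark matches, on either strand, to the NF-κB consensus (10 bases, of the type GGGACTTTCC), to a looser form of it, to the 9-base site GGAATTTCC or to the AP-1 site (TGACTCA or TGAGTCA). These regions are described in the paragraphs on genes, and were chosen to show sites that were held, sites that were left and sites that were new. The kept regions next to CXCL8, EFNA1, TNFAIP3, NFKBIZ and PLAUR read as follows.
CXCL8 kept, chr4:73740406-73740525: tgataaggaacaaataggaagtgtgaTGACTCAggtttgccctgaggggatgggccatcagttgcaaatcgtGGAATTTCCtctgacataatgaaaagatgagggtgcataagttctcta
EFNA1 kept, chr1:155124726-155124845: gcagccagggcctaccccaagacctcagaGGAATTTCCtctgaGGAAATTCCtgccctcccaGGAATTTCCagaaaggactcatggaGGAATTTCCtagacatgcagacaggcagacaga
TNFAIP3 kept, chr6:137873473-137873592: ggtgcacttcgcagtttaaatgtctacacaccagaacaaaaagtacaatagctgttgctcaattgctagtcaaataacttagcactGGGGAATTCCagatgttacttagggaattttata
NFKBIZ kept, chr3:101827726-101827845: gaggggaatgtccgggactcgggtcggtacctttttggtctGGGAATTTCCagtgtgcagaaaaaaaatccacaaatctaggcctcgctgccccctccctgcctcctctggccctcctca
PLAUR kept, chr19:43675610-43675729: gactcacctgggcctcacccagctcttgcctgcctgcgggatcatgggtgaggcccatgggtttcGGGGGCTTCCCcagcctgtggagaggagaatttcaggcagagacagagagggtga

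The lost regions shown are the strongest of all, in TLN2, and one near TNIP2. The new regions shown are those nearest ACHE and ADGRA3.
TLN2 lost, chr15:62482792-62482911: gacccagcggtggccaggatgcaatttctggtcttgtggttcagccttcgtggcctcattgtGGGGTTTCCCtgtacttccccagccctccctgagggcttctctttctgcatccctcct
TNIP2 lost, chr4:2798920-2799039: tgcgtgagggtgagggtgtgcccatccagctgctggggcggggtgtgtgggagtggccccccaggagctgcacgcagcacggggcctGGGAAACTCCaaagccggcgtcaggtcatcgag
ACHE new, chr7:100915223-100915342: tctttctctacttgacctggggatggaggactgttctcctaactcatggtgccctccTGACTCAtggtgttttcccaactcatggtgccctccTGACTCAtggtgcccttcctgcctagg
ADGRA3 new, chr4:22501552-22501671: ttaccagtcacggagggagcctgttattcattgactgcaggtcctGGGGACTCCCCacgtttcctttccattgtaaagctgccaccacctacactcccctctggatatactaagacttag

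Most of what RELA bound at 30 min was no longer called at 6 h. Of the 8504 regions of 30 min outside the vehicle lists, 31.6% (2691 regions, 95% Clopper-Pearson interval 30.7 to 32.6) were kept. Over the whole 30 min list 45.2% of regions were called at 6 h, and among its 2745 regions in a vehicle list 87.0% were. Tandem repeats, as defined below, made up 26.2% of the whole 30 min list but 5.98% of kept and 8.02% of lost regions. Of the 2942 repeats in that list 161 were kept regions, and 5347 of the 5813 lost regions lay outside repeats. Most of the 2745 regions in a vehicle list were thus repeats, and the 87.0% is mostly a share of repeats. Whole-list shares given below, and values with no region left out for vehicle, include these vehicle-listed regions. Such shares are not the background of the split into kept and lost regions. From the other side, 4062 of the 7266 regions of 6 h lay outside the vehicle lists, 2719 of them met a 30 min region and 1343 were new. Over the whole 6 h list 29.4% of regions were new. All intervals treat regions as units and cover counting error only, since 1 pooled list per condition leaves no spread between replicates and no depth. Peak names in the 30 min list carry the label of 1 replicate, so whether it pools all 3 is unclear, and a difference in depth between the lists cannot be told apart from a loss of binding.

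Kept regions were the stronger ones. Peak height was read as rank within a list, by the authors' fold enrichment over input, with 100% as the top. At 30 min the median rank was 78.3% for kept and 39.3% for lost regions. At 6 h it was 61.6% for kept and 26.2% for new regions. Divided into 5 equal bins by 30 min fold enrichment, 9.41% of regions were kept in the lowest bin (8.06 to 10.9) and 75.1% in the highest (72.9 to 77.1). Among kept regions the order at 30 min and at 6 h was related (Spearman's rho 0.56 across 2691 regions, which share libraries and are not replicates). At the edge of the rule, 187 lost regions lay within 1000 bp of a 6 h region and 86 kept regions had a summit more than 100 bp from that of the 6 h region they met.

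Kept regions held the NF-κB consensus more often than lost ones. In the 200 bp centred on the summit, 59.4% of kept regions (57.5 to 61.2) and 35.1% of lost regions (33.9 to 36.4) held it, a difference of 24.2 percentage points (Newcombe interval 21.998 to 26.4). Within bins of fold enrichment the difference averaged 14.0 points, from 2.99 in the lowest bin (-3.06 to 10.3) to 26.3 in the highest (20.9 to 31.5). It was 3.53 points when no region was left out for vehicle. Over all regions of the 30 min list the share was 34.8%, but that list includes the regions in a vehicle list, mostly repeats. Among the 8504 regions split here, 1598 kept and 2043 lost ones held the consensus. In windows 1000 bp to either side of kept and lost summits the share was 2.73% and 2.61%. It was 2.13% at 50097 FOSL1 regions that met no RELA or RELB region of any condition, and 4.04% at the start sites of 19962 protein-coding genes. With 1 mismatch allowed, 88.2% of kept regions held it, and the difference from lost ones was 13.3 points (11.6 to 14.9). At least 2 copies were present in 17.3% of kept and 9.13% of lost regions. The motif also sat closer to the summit, at a median of 13 bp in kept and 18 bp in lost regions.

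Retention was then read by the form of the site. Among the 8504 regions the 10-base forms most often carried were GGGAAATTCC (511 regions), GGGAATTTCC (474), GGGGAATTCC (331), GGGACTTTCC (287) and GGGGATTTCC (283). Of the carriers of GGGACTTTCC, the form known from the κB light-chain enhancer, 56.8% were kept (50.8 to 62.6). Of the carriers of GGGAAATTCC 37.8% were kept (33.5 to 42.1), and of those of GGGAATTTCC 38.8% (34.4 to 43.4). The median 30 min rank of the carriers was 68.6%, 65.6% and 65.2% for these 3 forms. GGGGAATTCC and GGGGATTTCC lay between, with 45.9% and 47.3% kept. The 9-base site GGAATTTCC did not separate the groups, at 12.4% of kept and 13.3% of lost regions (difference -0.89 points, -2.38 to 0.66). These forms were compared after their values were seen, and no test was made between them.

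AP-1 was less frequent at lost regions as well. FOSL1, called in vehicle before any cytokine, overlapped 57.3% of kept regions (55.4 to 59.2) and 42.4% of lost ones (41.1 to 43.7), a difference of 14.9 points (12.6 to 17.2). Over the whole 30 min list it was 58.0%, but that list includes the 2745 regions in a vehicle list. It is therefore not the background of the split into kept and lost regions. With no region left out for vehicle the difference was 30.2 points for FOSL1. The AP-1 site was in 21.1% of kept and 9.89% of lost regions (difference 11.2 points, 9.52 to 13.0), against 41.7% of FOSL1 regions outside the RELA and RELB lists. The whole 30 min list, again with its regions in a vehicle list, stood at 11.2%. The other motifs searched on both strands moved little between kept and lost regions: the CRE (TGACGTCA), ETS (CCGGAAG), C/EBP (TTGCNNAA), RUNX (TGTGGTT), FOX (TGTTTAC), IRF, SP/KLF (GGGCGGGG), SNAI/ZEB (CAGGTG) and NRF1 intervals all included 0. The TEAD motif (GGAATG), which can overlap an NF-κB site, was lower in kept regions, at 14.1% against 16.6% (difference -2.52 points, -4.11 to -0.86).

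Regions with both the NF-κB consensus and FOSL1 were kept most often at each level of peak height. With both, 64.7% of 30 min regions were kept (725 of 1120). With the NF-κB consensus alone 34.6% were kept (873 of 2521), with FOSL1 alone 28.3% (818 of 2889), and with neither 13.9% (275 of 1974). In the highest of the 5 bins of fold enrichment the shares were 91.4%, 76.2%, 72.7% and 45.6% in that order, and in the middle bin 41.5%, 22.9%, 24.6% and 11.7%. Regions with the NF-κB consensus and an AP-1 site were kept in 71.3% of cases (290 of 407). Within FOSL1 regions cut into 4 equal bins of FOSL1 fold enrichment, 33.3% were kept in the lowest and 44.1% in the highest bin, and their median RELA rank at 30 min was 35.3% and 54.0%.

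**Figure D1:**
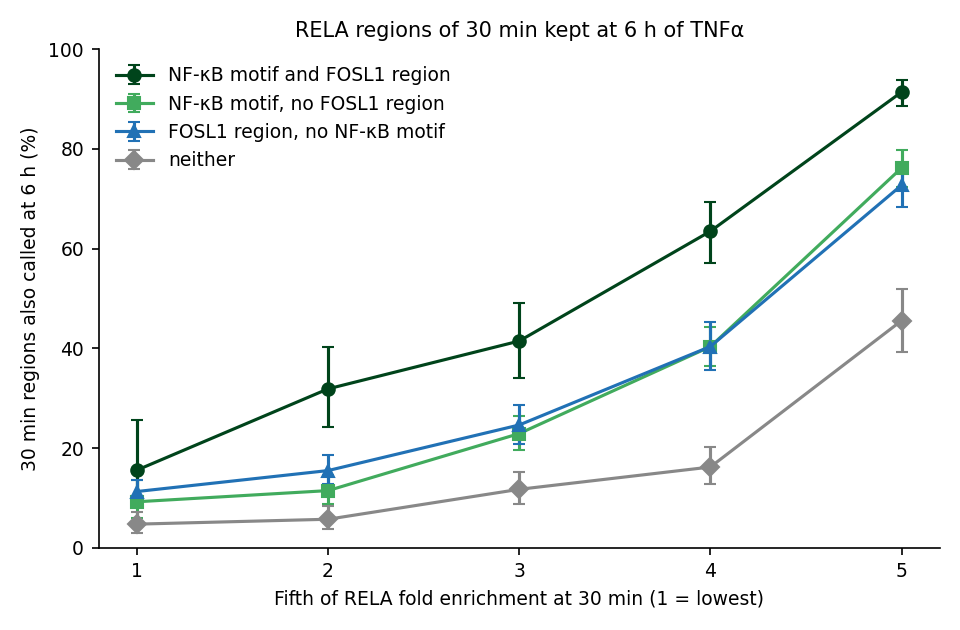
Percentage of 30 min RELA regions outside the vehicle lists that were also called at 6 h (y axis), by bin of RELA fold enrichment at 30 min (x axis, 5 bins of equal number), for regions with the NF-κB consensus and a FOSL1 region, with one of them, or with neither; bars are 95% Clopper-Pearson intervals. Regions with both lie on top in each bin, at 15.6% in the lowest and 91.4% in the highest, and regions with neither lie at the bottom, at 4.75% and 45.6%.

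Kept regions overlapped the lists of other NF-κB conditions more often than lost ones. RELB after 6 h of TWEAK, a ligand of the noncanonical branch, overlapped 31.6% of kept regions (29.8 to 33.4) and 2.55% of lost ones (2.16 to 2.98), against 27.2% of the whole 30 min list. The difference was 29.0 points (27.3 to 30.9). Of the 998 regions of 30 min with RELB at 6 h of TWEAK 85.2% were kept, and of the other 7506 regions 24.5%. RELB at 6 h of TNFα itself reached fewer, 6.13% of kept and 0.84% of lost regions, against 20.7% of the whole list (difference 5.29 points, 4.40 to 6.28, and 38.8 with no region left out for vehicle). RELA at 30 min of TWEAK overlapped 12.9% of kept and 0.55% of lost regions (20.1% of the whole list), and of the 379 such regions 91.6% were kept. RELA after 6 h of TWEAK overlapped 5.02% of kept and 1.03% of lost regions (20.9% of the whole list). Regions shared with TWEAK ranked high at 30 min of TNFα, with a median of 93.4% for those of RELA at 30 min and 79.8% for those of RELB after 6 h. Within bins of 30 min fold enrichment the difference for RELB after 6 h of TWEAK lay between 15.2 points in the lowest and 35.2 in the highest bin.

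No difference in promoter share was detected between kept and lost regions. Within 1000 bp of a start site lay 22.1% of kept and 20.8% of lost regions, against 16.8% of the whole 30 min list (difference 1.31 points, -0.55 to 3.22). The difference was 6.34 points among the 4000 strongest regions of each list, and -6.26 points with no region left out for vehicle. By bin of 30 min fold enrichment it was -12.1 points in the lowest (-17.0 to -5.59) and 7.37 in the highest (2.81 to 11.5). The intervals of the bins between included 0. Introns held 34.5% and 34.2%, and 41.8% and 42.9% were intergenic. Kept and lost regions often were neighbours, since 39.9% of kept regions had a lost region within 50 kb and 21.6% of lost regions had a kept one.

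H3K27ac stayed at kept regions and receded at lost ones. In vehicle 67.8% of kept and 55.5% of lost regions had an H3K27ac peak within 500 bp of the summit (difference 12.3 points, 10.1 to 14.5), against 60.1% of the whole 30 min list. By bin of 30 min RELA fold enrichment that difference was -7.69 points in the lowest (-15.8 to 0.12) and 16.2 in the highest (11.0 to 21.5). At 30 min both groups were higher, at 80.4% of kept and 66.7% of lost regions (71.2% of the whole list). At 6 h kept regions stood at 81.7% and lost regions were back at 60.2% (67.1% of the whole list). Of the regions with H3K27ac at 30 min, 5.18% of kept and 12.8% of lost ones had none at 6 h (difference -7.65 points, -9.03 to -6.21).

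The sites that gained the mark at 30 min were then followed to 6 h. Among regions without H3K27ac in vehicle and with it at 30 min, 73.4% of kept (273 of 372, 68.6 to 77.8) and 36.1% of lost regions (255 of 706, 32.6 to 39.8) still had it at 6 h, a difference of 37.3 points (31.3 to 42.7). At FOSL1 regions outside the RELA and RELB lists the share was 38.3% (370 of 967). In 3 equal bins of RELA fold enrichment the kept and lost shares were 50.0% (20 of 40) and 34.8% in the lowest, 83.5% and 36.3% in the middle, and 73.2% and 39.2% in the highest bin. With H3K27ac peaks required to overlap the region itself the difference was 23.7 points. With the 500 bp window the kept and lost shares were 73.9% and 33.3% without FOSL1, and 71.9% and 54.3% with FOSL1. Between 30 min and 6 h kept regions gained the mark at 146 and lost it at 112 sites, and lost regions gained it at 119 and lost it at 497. The H3K27ac list of 30 min was the shortest (53861 peaks, against 59855 in vehicle and 61154 at 6 h). FOSL1 regions outside the RELA and RELB lists gained the mark at 6410 and lost it at 1119 sites over the same interval. Of those 6410 sites 4836 had it in vehicle and lacked it only at 30 min, against 30 of the 119 at lost regions. What the lengths of the lists contribute was not tested.

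**Figure D2:**
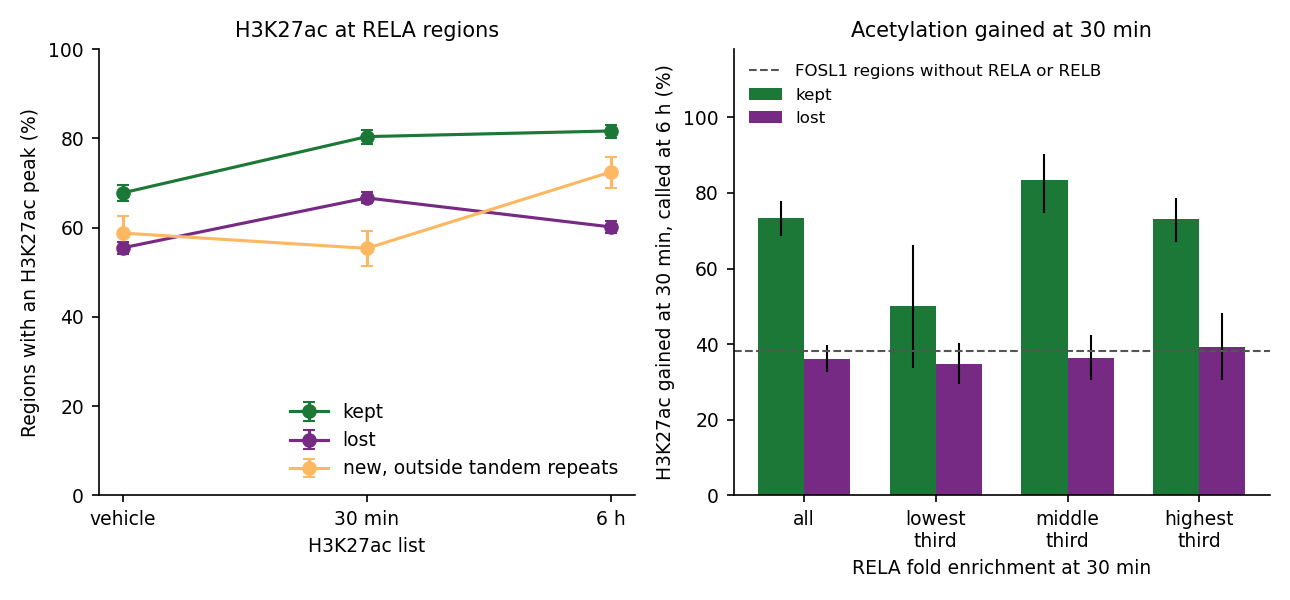
Left, percentage of kept, lost and new RELA regions (new outside tandem repeats) with an H3K27ac peak within 500 bp (y axis) by H3K27ac list, from vehicle to 6 h of TNFα; right, percentage of regions that gained H3K27ac at 30 min and had it at 6 h, overall and in 3 equal bins of RELA fold enrichment at 30 min, with the share at FOSL1 regions without RELA or RELB as a dashed line (38.3%). Bars are 95% Clopper-Pearson intervals. Kept regions stay near 80% after 30 min and lost regions fall back to 60.2%. The dashed line holds FOSL1 regions only. Lost regions on the right mix those with FOSL1 (54.3%, 51 of 94) and those without (33.3%, 204 of 612).

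Within the kept regions, some rose and some fell in rank. Ranked among themselves at each time, 442 of the 2691 climbed by 25 percentage points of rank or more and 442 dropped by as much. Climbers were more common among regions with an AP-1 site, at 27.3% against 13.5% without (difference 13.8 points, 9.95 to 17.8). They were also more common with RELB at 6 h of TWEAK, at 23.3% against 13.3% (10.0 points, 6.87 to 13.3), and with the NF-κB consensus, at 19.8% against 11.5% (8.25 points, 5.48 to 10.9). They were less common at promoters, at 8.74% against 18.6% (-9.87 points, -12.5 to -6.86), and at FOSL1 regions, at 13.2% against 20.7% (-7.51 points, -10.4 to -4.64). Regions with FOSL1 were kept more often but climbed less often, while those with the AP-1 site did both more often. Starting ranks among kept regions at 30 min differed. The median was 43.9% with and 51.7% without the AP-1 site, 52.1% and 47.8% for FOSL1, and 56.2% and 47.7% for promoters. It was 54.4% and 40.8% for the NF-κB consensus, and 59.96% and 46.04% for RELB. What starting rank contributes was not tested. Drops were less common with the AP-1 site, the NF-κB consensus and RELB. For FOSL1 and promoters the drop intervals included 0 (-0.63 to 4.99 and -0.28 to 6.74).

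Tandem repeats made up 700 of the 1343 new regions. Such a repeat, defined by a self-match of at least 0.4 over the 1000 bp around the summit, was found at 52.1% of new regions (49.4 to 54.8), 5.98% of kept and 8.02% of lost ones, against 49.6% of the whole 6 h list and 26.2% of the 30 min list. New regions are therefore described for the 643 outside such repeats as well. The NF-κB consensus was at 16.7% of new regions and at 34.1% of those outside repeats (30.4 to 37.9), against 61.4% of the kept ones outside repeats as called at 6 h (difference -27.4 points, -31.4 to -23.2) and 28.8% of the whole 6 h list. Lost regions outside repeats stood at 37.6% (difference -3.53 points, -7.32 to 0.43).

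The AP-1 site was more frequent in new regions outside repeats than in kept or lost ones outside repeats. It was at 32.7% of them (29.0 to 36.4), at 21.4% of kept regions (difference 11.2 points, 7.36 to 15.3) and at 10.7% of lost ones (21.96 points, 18.3 to 25.8), against 12.1% of the whole 6 h list. With the repeats included the order with kept regions was the opposite, 15.9% against 20.4% (-4.44 points, -6.87 to -1.91). FOSL1 in vehicle overlapped 50.9% of new regions outside repeats and 55.0% of kept ones, a difference whose interval included 0 (-4.18 points, -8.49 to 0.13). With repeats included it was 46.3% of new and 55.8% of kept regions (-9.44 points, -12.7 to -6.18), against 68.7% of the whole 6 h list, and within bins of fold enrichment outside repeats the difference was -10.2 points (-15.6 to -4.33). Promoters held 13.7% of new regions outside repeats and 22.9% of kept ones (-9.19 points, -12.1 to -5.91). Over all new regions the promoter share was 6.85%, against 10.7% of the whole 6 h list. RELB at 6 h of TNFα overlapped 10.6% of all new and 6.03% of all kept regions (4.54 points, 2.73 to 6.49), against 37.0% of the whole 6 h list. Outside repeats the order was the opposite, 2.80% of new and 4.74% of kept regions (-1.94 points, -3.30 to -0.19). RELB after 6 h of TWEAK overlapped 12.5% of new regions (45.0% of the whole 6 h list) and 17.1% of those outside repeats. RELA at 30 min of TWEAK overlapped 3.87% (33.0% of the whole list), and 0.62% outside repeats.

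H3K27ac at new regions outside repeats stood at 58.8% in vehicle, 55.4% at 30 min and 72.5% at 6 h, and at all 1343 new regions at 34.6%, 37.3% and 41.996%, against 57.2%, 66.8% and 65.6% of the whole 6 h list. From 30 min to 6 h those outside repeats gained the mark at 115 and lost it at 5 sites, and all new regions gained it at 154 and lost it at 91. FOSL1 regions outside the RELA and RELB lists gained it at 6410 and lost it at 1119. Of the FOSL1 regions without it at 30 min 29.4% had it at 6 h, against 40.1% of such new regions outside repeats and 18.3% of all such new regions. Of the 240 new regions outside repeats that had it neither in vehicle nor at 30 min, 30.4% had it at 6 h (24.7 to 36.7). The share was 4.49% of such lost regions and 28.0% of such kept ones outside repeats. Over all new regions the share was 13.8% of 774 (11.5 to 16.5), and at those FOSL1 regions it was 10.2%.

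**Figure D3:**
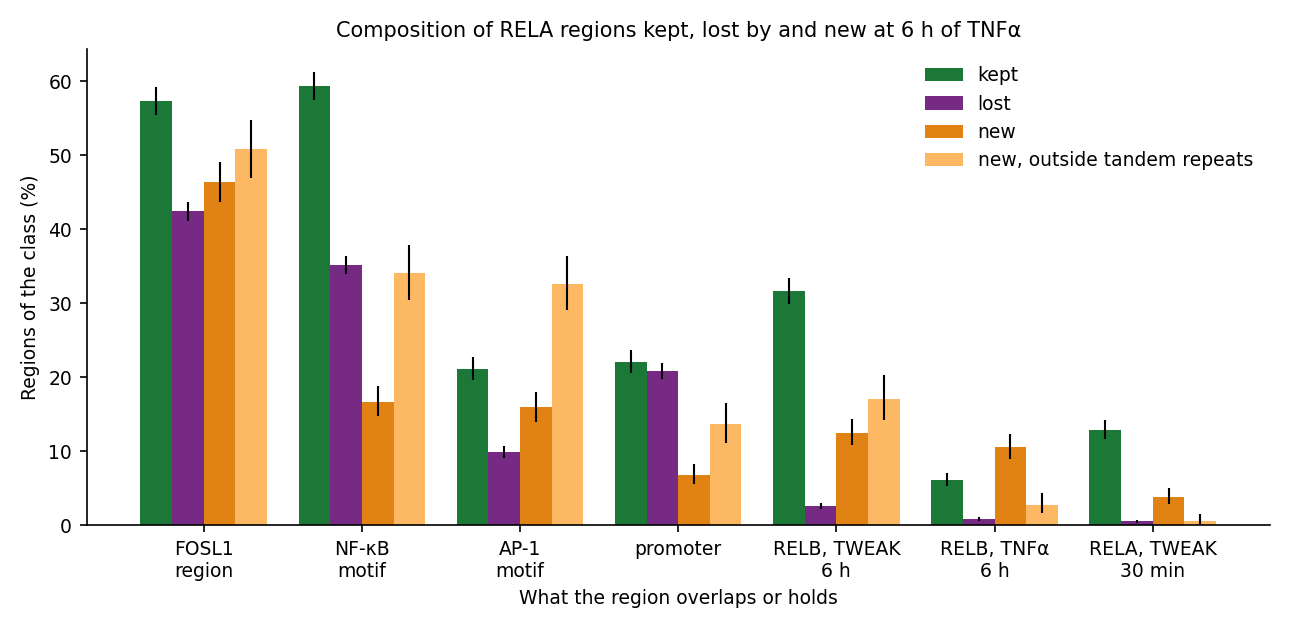
Percentage of kept, lost, new and new regions outside tandem repeats (y axis) that overlap a FOSL1 region, hold the NF-κB consensus or the AP-1 site, lie at a promoter, or overlap RELB or RELA lists of other conditions (x axis), with 95% Clopper-Pearson intervals. Kept regions lead for the NF-κB consensus (59.4%) and for RELB at 6 h of TWEAK (31.6%), and new regions outside repeats lead for the AP-1 site (32.7%).

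The strongest regions of each kind outside repeats were named with the nearest protein-coding gene. The top 5 kept regions had 30 min fold enrichments of 23.6 to 31.3 and lay nearest FGF9 (369824 bp away), MACROD2, CXCL8, NDUFV2 and MOBP, all 5 in FOSL1 regions and all 5 with H3K27ac at 30 min. At 6 h their ranks were 93.6%, 87.2%, 99.4%, 97.4% and 82.3%. The top 5 lost regions lay in or nearest TLN2, which codes for a linker of integrins to actin, LRRC32, GPR157, SNX16 (653764 bp away) and IRS2 (529471 bp away), the gene of an adaptor of the insulin receptor. They had fold enrichments of 17.2 to 18.7, at ranks of 97.6% to 98.6%, and were absent from the 6 h list. The TLN2 region had H3K27ac at 30 min and neither in vehicle nor at 6 h, and so had the LRRC32 region. The top 5 new regions were weaker, with 6 h fold enrichments of 10.2 to 13.4 and ranks of 87.6% to 94.8%. They lay nearest VEGFC, a growth factor of lymphatic vessels, PSMB7, a proteasome subunit, PICALM, a clathrin adaptor, ACHE and ADGRA3. The PSMB7, PICALM and ACHE regions had H3K27ac at 6 h and not at 30 min, and the ACHE sequence above holds 2 AP-1 sites.

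A set of 6 genes was read one by one, from 10 kb before to 10 kb past each gene. The lists differ in length and in their share of tandem repeats, and the median rank of the 2691 kept regions was itself 78.3% in the 30 min list and 61.9% in the 6 h list. The pair of ranks given for a kept region, 30 min first, is therefore its place in each list and not a measured change in binding. CXCL8, which codes for the neutrophil chemoattractant IL-8, had a region 53 bp from its start site that ranked 99.9% at 30 min and 99.4% at 6 h, and a second 5727 bp upstream at 69.8% and 32.3%. EFNA1, which codes for an ephrin ligand, had a region 3090 bp upstream that ranked 98.7% at 30 min and 74.4% at 6 h, with 4 matches to GGAATTTCC in the sequence above. A second EFNA1 region, 7321 bp downstream, was kept at 66.8% and 50.3%, and one at rank 2.03%, 2327 bp upstream, was lost. MMP1, a collagenase gene, had 1 region, at 89.0% and 92.9%. The start site of TNFAIP3 and both regions of NFKBIA (the gene of IκBα) were in a vehicle list and so stand outside the comparison. The TNFAIP3 intron region 6319 bp downstream was kept, at 96.6% and 95.4%, and had H3K27ac at 30 min and 6 h but not in vehicle. At BCL3, an atypical IκB protein, 3 regions were kept and 2 were lost, and another 2 were in a vehicle list.

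**Figure D4:**
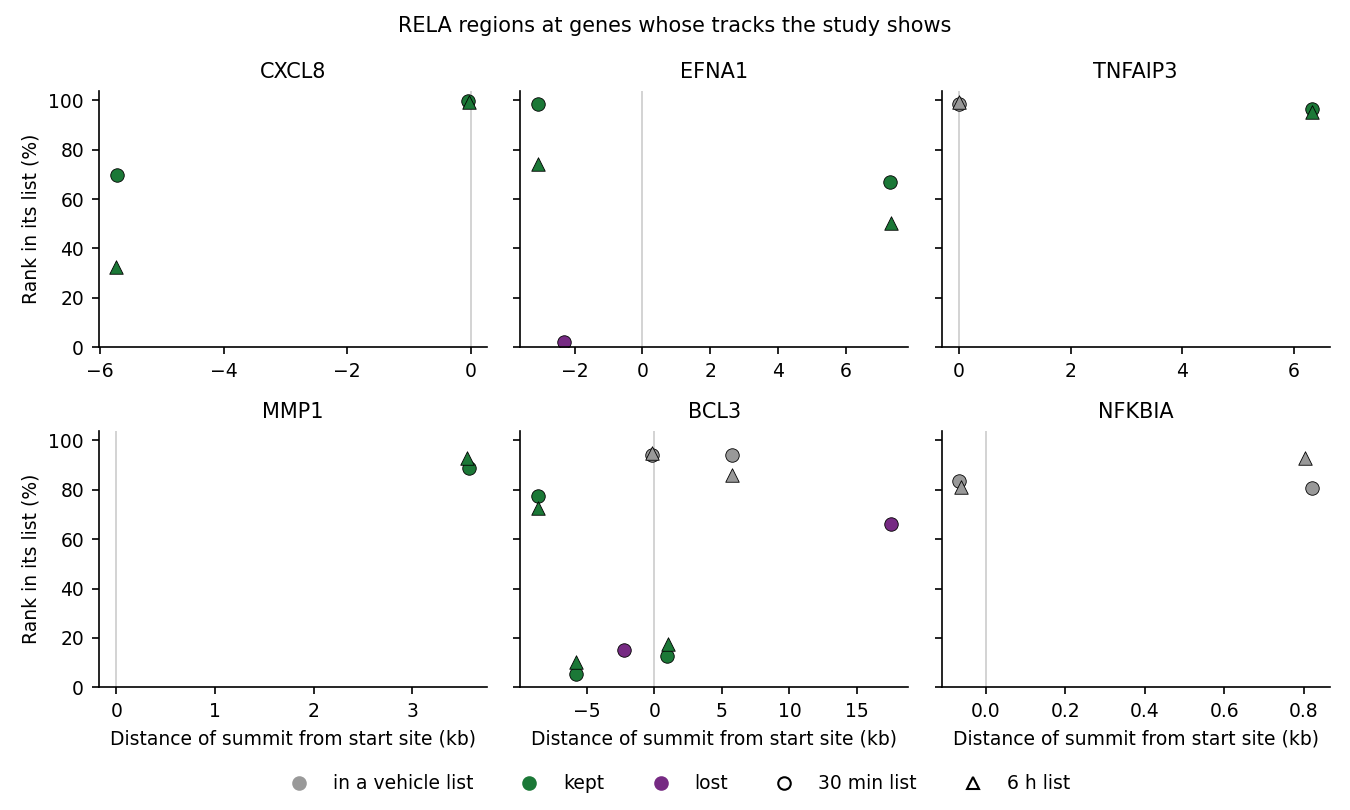
Rank of RELA regions within their list (y axis, 100% is the highest fold enrichment) against the distance of the summit from the start site in kb (x axis) at CXCL8, EFNA1, TNFAIP3, MMP1, BCL3 and NFKBIA; circles are regions of 30 min, triangles of 6 h, and colours mark kept, lost and vehicle-listed regions. The region at the CXCL8 start site ranks 99.9% and 99.4% in the lists of 30 min and 6 h, and the strongest EFNA1 region 98.7% and 74.4%.

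Genes were then counted by function when a region summit lay within 50 kb of the start site. Regions in a vehicle list were left out of these counts. Over all 19962 protein-coding genes 16.2% had a kept, 28.5% a lost and 3.26% a new region, and in a comparison list of 35 ribosomal protein genes 12 (34.3%) had a kept and 17 (48.6%) a lost region, with 33.3% of their regions kept. Near neighbours share regions, so counts of genes are not independent. Of all 30 min regions outside the vehicle lists 31.6% were kept. Of the distinct regions near a list, the share kept was 28.6% for NF-κB subunits, cytokines, and survival and apoptosis, and 33.3% for the IκB family. It was 38.8% for adhesion and matrix, 46.9% for receptors and adaptors, and 50.0% for antigen presentation and interferon response.

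Chemokine genes had the highest share of kept regions among the 13 lists. All 13 had a kept region, 7 had a lost one and none a new one. Of the 23 distinct regions near them 16 were kept, 69.6%, against 31.6% of all. The gene CXCL1 had its region 89 bp from the start site, at 97.7% at 30 min and 97.4% at 6 h. That same region is the kept one counted for CXCL6. The CXCL2 region, 17919 bp upstream, ranked 98.4% at 30 min and 53.9% at 6 h. Lost regions near CCL2, CCL20 and CXCL5 ranked 79.3%, 50.4% and 43.0% at 30 min, and all 3 genes also had a kept region.

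Of the 6 IκB family genes 4 had a kept and 5 a lost region. The lost regions near NFKBIA lay more than 10 kb from the gene. Its 2 regions at the gene, called at both times, were in a vehicle list and are not counted. NFKBIZ, which codes for the nuclear IκBζ, had its region 205 bp from the start site, with GGGAATTTCC near the summit, at 98.7% and 88.1%. The NFKBIE region ranked 26.8% in the 30 min list and 83.2% in the 6 h list. Of the 10 feedback regulators 5 had a kept and 5 a lost region, and 12 of 19 distinct regions were kept. TNIP2, an inhibitor of NF-κB signalling, had a kept region at 64.6% and 98.9% and a lost region at 90.4%, both with the NF-κB consensus. TNFAIP3 had a lost region at 78.7%, and TAX1BP1 had the one new region of the list, at 69.6%. Of the 5 NF-κB subunit genes RELA alone had a kept region, at 92.9% and 81.3%. Lost regions were near NFKB1, NFKB2 and RELA, the strongest at 69.1%, near NFKB1.

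Among 17 cytokine genes 7 had a kept and 14 a lost region, and CSF1, CSF2 and CSF3 had a new one. The growth factor gene CSF1 had a kept region at 98.6% and 96.0%, and IL32 at 97.9% and 96.2%. The new CSF2 region lay 117 bp upstream of the start site, at rank 35.9% in the 6 h list, with H3K27ac in vehicle and at 6 h but not at 30 min. Lost regions ranked 90.5% near IL1A and 76.9% near TNF and LTA. Among 22 receptor and adaptor genes 12 had a kept and 11 a lost region. The kinase gene MAP3K8 had its region 27 bp from the start site, at 97.7% and 98.0%. The TWEAK receptor gene TNFRSF12A was near the kept region of IL32, at 97.9% and 96.2%, and the TNFα receptor gene TNFRSF1A had a kept region at 93.2% and 89.7% and a lost one at 78.1%.

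Of 27 adhesion and matrix genes 15 had a kept, 19 a lost and 6 a new region. PLAUR, the urokinase receptor gene, had a kept region at 99.7% and 95.7%, with the NF-κB consensus and an AP-1 site within 100 bp of the summit. The PLAUR region lies in a tandem repeat by the limit used here. Lost regions were near ITGB1, CD44 and LAMB3, at 83.9%, 81.5% and 75.7%, and LAMB3 also had a kept one at 30.1% and 69.7%. The lost region 178 bp upstream of ICAM1, at 73.3%, had H3K27ac at 30 min alone. The new region near MMP10 was a tandem repeat, and the one 5606 bp upstream of ICAM1, at 60.6%, held the NF-κB consensus. Of 15 survival and apoptosis genes 8 had a kept and 11 a lost region, with BID at 98.3% and 97.5% and CFLAR, an inhibitor of caspase-8, at 48.0% and 40.2% kept and at 77.4% lost. GADD45B had a new one at 38.2%. Of 24 genes of antigen presentation and interferon response 9 had a kept and 14 a lost region. B2M, the light chain of MHC class I, and TAPBP, which helps load it with peptide, had kept regions close to their start sites, B2M at 96.0% and 91.4%, and TAPBP at 97.2% and 67.1%. OAS1 had one at 94.4% and 96.3%. IRF2 and IRF1 had lost regions at 85.4% and 81.5%. IRF1 also had a kept region at 72.7% and 88.2%.

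Of 15 pancreatic and epithelial transcription factor genes 2 (13.3%, ELF3 among them) had a kept and 9 a lost region, against 16.2% and 28.5% of all genes. Of the 17 distinct regions near them 3 were kept, 17.6%, against 31.6% of all. The lost region near HNF4A ranked 88.8% and had H3K27ac at 30 min, and neither in vehicle nor at 6 h. Of 12 AP-1 genes 5 (41.7%) had a kept and 10 a lost region, and 7 of 32 distinct regions were kept, 21.9%, with FOSL1 at 98.5% and 86.9% and BATF at 99.0% and 88.2% among the kept and 7 lost regions near MAFK alone. None of 9 EMT transcription factor and cadherin genes had a kept region, against 16.2% of all genes, and only 3 distinct lost regions lay near them. A lost region was near 22.2% of them, against 28.5% of all genes, and a new one near 22.2%, against 3.26%. With 9 genes these shares were not tested. SNAI1 and VIM had a lost one, at 45.9% and 36.3%, and TWIST2 and SNAI2 a new one, at 17.3% and 19.6%.

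**Figure D5:**
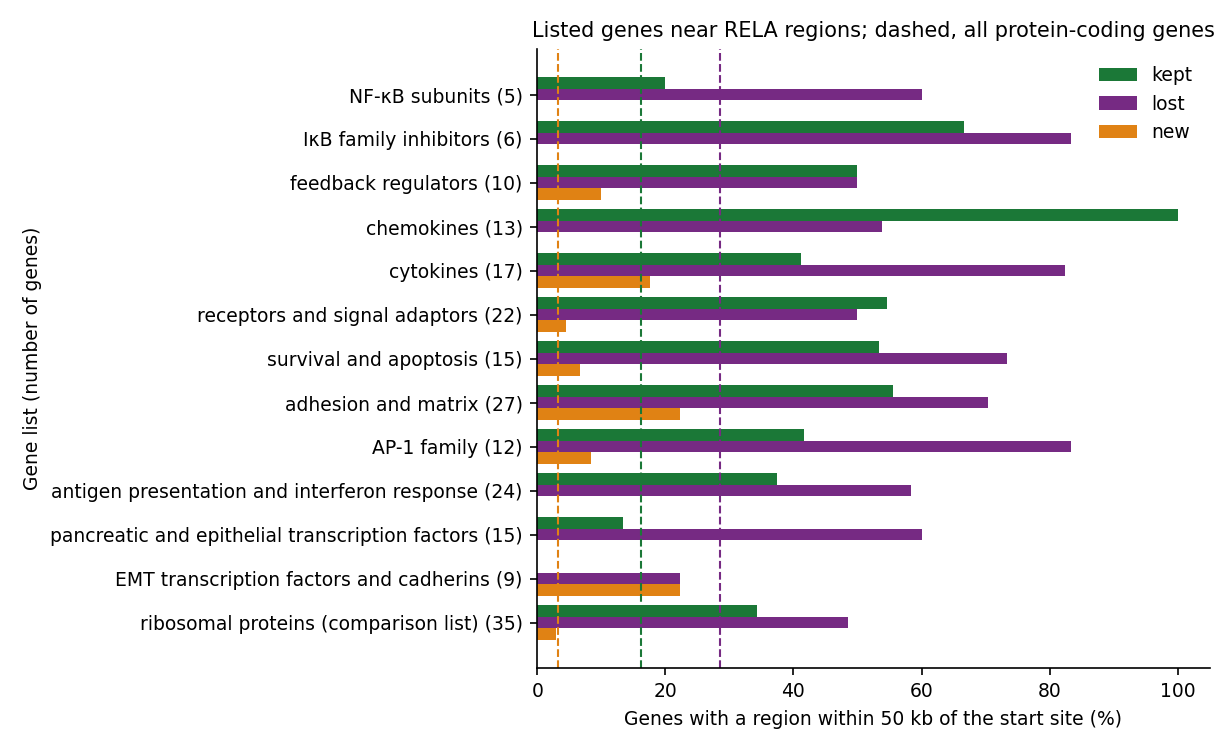
Percentage of genes in each of 13 lists (y axis, number of genes in brackets) with a kept, lost or new RELA region within 50 kb of the start site (x axis); dashed lines give the same for all protein-coding genes (16.2%, 28.5% and 3.26%). Chemokines reach 100% for kept regions, and the pancreatic and epithelial transcription factors reach 9 of 15 genes for lost and 2 of 15 for kept regions.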

How the data were processed

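ChIP-seq peak lists of L3.6pl cells were used. The authors mapped paired-end reads to hg38 with Bowtie2 2.5.0, handled alignments with SAMtools 1.18 and deepTools 3.3.2, and called peaks with MACS2 (version not given in the sources used here) without a shifting model and against input, as narrow peaks for RELA, RELB and FOSL1 and as broad peaks for H3K27ac, with 1 merged list per condition of 3 replicates. Peak names in the RELA list of 30 min TNFα carry a replicate label, so whether that list pools all 3 is unclear. The deposited fold enrichment is the authors' ratio of ChIP over input, and it was used as a rank within its list. The deposited −log10 q served as a filter, while the −log10 p values and the score that the authors deposited were not used. Depth per sample is unknown, and intervals cover counting error only.

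Overlaps, motifs and distances were computed with pysam 0.24.0, scipy 1.17.1, pandas 2.3.3 and numpy 2.4.6 under Python 3.11.15, on chromosomes 1 to 22 and X. Genes and start sites came from GENCODE 44, and sequences from hg38. Regions were the units. Shares carry Clopper-Pearson and differences Newcombe 95% intervals, and a difference was called when its interval left out 0. No p-value was computed. The code was tested on simulated lists, motifs and repeats. The members, the 13 gene lists and the tandem repeat limit were chosen with earlier results of these data known. Named were the 5 strongest kept, lost and new regions outside repeats, up to 3 genes with the highest fold enrichment per list and kind of region, and the 6 genes whose tracks the study shows. Some further listed genes were named after their values were seen (NFKBIE, and IRF1, LAMB3 and TNFRSF1A as kept). Alternatives covered the overlap, peak filters, the vehicle filter, repeats, peak height, and the windows for FOSL1, H3K27ac, motifs, promoters and genes. The H3K27ac lists of TWEAK were not used. Some named genes and sequences that these rules select are not reported here.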

Additional observations from a re-analysis of the deposited data

How the results depend on the processing

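Of 200 recomputed values for 20 results 173 were classed as the same. For differences this meant the same direction and the same side of the threshold. For counts, which have no direction, it meant staying within a fixed ratio of the main value. The number of kept regions was 5079 with no region left out for vehicle, and between 2071 and 2665 under the other alternatives. With the 4000 regions of highest fold enrichment of each list 1908 were lost and 52.3% were kept. New regions numbered 600 with a fold enrichment of at least 5, 2139 with no region left out for vehicle and 643 outside tandem repeats. The FOSL1 difference between new and kept regions was -4.18 points outside repeats and -1.12 with FOSL1 summits within 100 bp, both intervals including 0, and -16.8 to -3.27 under the other 10. The NF-κB difference between kept and lost regions was -0.89 points for the 9-base site, 3.53 with no region left out for vehicle, and otherwise from 13.3 to 25.5. The AP-1 difference between new and kept regions, -4.44 points, was -1.28 for the top 4000 regions, -2.65 with regions within 1000 bp of vehicle regions left out, 3.34 with a fold enrichment of at least 5, 1.60 within bins of fold enrichment, 11.2 outside repeats and 12.6 within bins outside repeats. The promoter difference between kept and lost regions, 1.31 points, was 3.38 with a fold enrichment of at least 5. For the top 4000 regions it was 6.34, and with no region left out for vehicle -6.26. Averaged over bins, whose differences had opposite signs, it was -1.14. The RELB difference at 6 h of TNFα between new and kept regions, 4.54 points, was -16.3 with no region left out for vehicle, -1.94 outside repeats and -0.0319 within bins outside repeats. Genes with a kept, lost or new region numbered 1106, 2146 and 188 within 10 kb, and 5348, 8809 and 1270 within 100 kb. The causes of these changes were not tested. The 9-base site, 1 mismatch, the H3K27ac gain at 30 min and the joint use of bins and repeats were added after seeing the data. Leaving out replicates was not run, since each list is pooled. No paired analysis was possible because the results come from pooled lists with no replicate columns and no test. Without depth, a region not called at 6 h may be weaker, absent or under the limit of detection, which cannot be told apart.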
